A study of Mus musculus with 6 samples.

Results

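The glucocorticoid receptor, the enzyme that supplies it with hormone inside adipose tissue and 7 genes known as its targets were followed in epididymal white adipose tissue (eWAT) of mice with cancer-associated cachexia (CAC). The set held 10 of the 55039 genes in the deposited table, picked by gene symbol: the receptor genes Nr3c1 and Nr3c2, the enzyme gene Hsd11b1, and the targets Fkbp5, Tsc22d3, Per1, Zbtb16, Sgk1, Errfi1 and Cdkn1a. All 10 passed the filter on low counts. They were chosen with their CAC and CONT values already known, so their difference between the groups is described here without a test.

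The tissue came from male C57BL/6 mice that were 6 to 7 weeks old at the start. CAC mice received Lewis lung carcinoma (LLC) cells, a mouse lung tumor line of the same strain, under the skin, and CONT mice received phosphate-buffered saline (PBS) in its place. Both groups were killed on day 28, and neither carried a transgene or received a drug according to the labels and methods. Each group had 3 libraries, 1 per mouse, so p-values below measure the spread between single mice of 1 experiment. The hour at which tissue was taken and the level of corticosterone in the blood were not given in the sources used here.

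Glucocorticoids, which in mice are mainly corticosterone, bind a receptor that waits in the cytoplasm with heat shock proteins. Once bound, the receptor moves to the nucleus, attaches to palindromic DNA sites and raises or lowers the transcription of nearby genes. Fat is a classical target tissue, where the hormone changes lipid storage, lipolysis and insulin response. The enzyme 11-beta-hydroxysteroid dehydrogenase type 1 regenerates active hormone from its inert keto form within adipocytes. Several targets feed back on the pathway: the Fkbp5 protein lowers the receptor's affinity for hormone, and the Tsc22d3 protein (also known as GILZ) carries part of the anti-inflammatory response.

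Total counts ran from 15713794 to 25926425 per library, with CONT replicate 1 the lowest. That library also gave 30.2% of its counts to mitochondrial genes, against 3.89% to 5.04% in the other 5. Levels are given in CPM, the number of reads of a gene scaled to a common library size, here adjusted by the trimmed mean of M values (TMM). Adipocyte markers summed to 21283 to 53028 CPM in CONT and to 31927 to 43017 in CAC, and all 9 markers were detected in both groups. CONT replicate 3 held 8545 CPM of 5 epididymis markers, which summed to 139 CPM in CONT replicate 1 and to at most 0.604 in the other 4. Neutrophil markers summed to 2.5 to 44.8 CPM in CONT and to 127, 221 and 1027 in CAC replicates 1, 2 and 3. B and plasma cell markers summed to 32.5 to 85.7 CPM in CONT and to 7.25 to 18.3 in CAC, and T cell markers to 6.55 to 11.3 in CONT and to 4.8 to 6.0 in CAC. Macrophage, endothelial and fibroblast sums overlapped, although 3 of 6 fibroblast and progenitor markers were separated with lower values in CAC and 1 with higher values. Erythroid markers summed to 5678, 261 and 392 CPM in CONT and to 2397, 1853 and 2439 in CAC, with CONT replicate 1 again apart from the other CONT libraries. Skeletal muscle markers (39.8 to 118 CPM in CONT, 11.7 to 77.0 in CAC) and mesothelial markers (111 to 194 and 62.8 to 201) overlapped. The part of these cells in the results was not tested. Since the tissue was sequenced in bulk, fewer cells of a type and less RNA per cell cannot be told apart.

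The DNA that precedes the starts of these genes was examined because targets of a nuclear receptor are defined by the sites it binds. RefSeq promoter windows (GRCm38.p6, 250 bases before to 50 bases after a start) were matched for 8 of the 10 genes, 18 windows in all. They were searched on both strands for a 13-base glucocorticoid receptor site (GNACA, any 3 bases, then its reverse complement TGTNC), its hexamer (AGAACA, or TGTTCT on the other strand) and 2 elements of other pathways. The latter were the E-box of the clock, CACGTG, and the core of the cyclic AMP element, searched as TGACG and its reverse complement. The 4 windows that follow, cut at the first exonic base of the gene and written 5′ to 3′ on the strand of the gene, are 4 of the 6 that hold a receptor sequence or the E-box, with every match in capitals. The other 2 were Sgk1 windows with only the hexamer, 195 and 13 bases before their starts.
Sgk1 (chr10:21993640-21993889, plus strand): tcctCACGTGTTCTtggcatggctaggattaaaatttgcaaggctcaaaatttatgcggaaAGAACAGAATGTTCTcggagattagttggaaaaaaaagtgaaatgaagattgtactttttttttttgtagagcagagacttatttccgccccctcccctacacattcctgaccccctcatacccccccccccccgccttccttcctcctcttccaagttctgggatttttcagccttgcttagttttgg
Fkbp5 (chr17:28486150-28486399, minus strand): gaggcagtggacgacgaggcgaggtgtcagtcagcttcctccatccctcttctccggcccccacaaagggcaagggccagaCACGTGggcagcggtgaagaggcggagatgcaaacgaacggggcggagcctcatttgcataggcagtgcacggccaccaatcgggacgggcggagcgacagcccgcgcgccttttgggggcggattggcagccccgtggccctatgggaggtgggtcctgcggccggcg
Per1 (chr11:69098699-69098947, plus strand): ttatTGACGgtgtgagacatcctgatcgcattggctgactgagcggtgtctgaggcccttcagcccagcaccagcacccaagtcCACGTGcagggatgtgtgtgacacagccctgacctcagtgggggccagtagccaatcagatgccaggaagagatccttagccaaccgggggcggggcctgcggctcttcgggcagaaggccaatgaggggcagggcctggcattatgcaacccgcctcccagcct
Tsc22d3 (chrX:140600660-140600772, minus strand): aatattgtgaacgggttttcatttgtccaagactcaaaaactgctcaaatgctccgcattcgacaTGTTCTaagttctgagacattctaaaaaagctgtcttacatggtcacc
Sgk1 held the full site, matched as GAACAGAATGTTC and beginning 188 bases before the start of transcript Sgk1-202, which lies within an intron of the longer Sgk1 transcripts. The capitals at the beginning of that window join an E-box to an overlapping TGTTCT. Fkbp5 and Per1 each held an E-box, 169 and 166 bases before the start given by RefSeq, and the Per1 window also held TGACG. Both starts lie inside the annotated span of the gene, at base 28486149 for Fkbp5 (28399094-28517527) and 69098949 for Per1 (69095217-69109960). The Tsc22d3 stretch held TGTTCT 185 bases before the start given by RefSeq.

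The full site was found in 1 of the 18 windows, and in 0.475% of all 32851 windows, from which no chromosome was left out. The hexamer was found in 4 of the 18, and in 19.0% of all. The E-box was found in 3 of the 18 and in 7.15% of all, and the cyclic AMP core in 5 of the 18 and in 20.8% of all. Such matches are letters in a short window. Binding of the receptor was not measured in these mice, and its known sites for many of these genes lie far outside such windows.

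The levels of both receptor genes overlapped between the groups. Nr3c1 (ENSMUSG00000024431), which encodes the glucocorticoid receptor, had 159, 204 and 227 CPM in CONT replicates 1 to 3, and 199, 206 and 122 in CAC replicates 1 to 3. The groups overlapped, with CAC replicate 3 below every CONT library. Its fitted log2 fold change of CAC over CONT was -0.16 ± 0.28 (SE, n = 3 per group), and 0.05 without CAC replicate 3. Nr3c2, the mineralocorticoid receptor that binds the same hormone with higher affinity, had 12.3, 12.4 and 18.7 CPM in CONT and 7.76, 18.4 and 11.2 in CAC. Those groups also overlapped, and the log2 fold change was -0.22 ± 0.38, with values of 0.03 without CONT replicate 3 and 0.08 without CAC replicate 1. In FPKM, a unit that divides by transcript length and a constant per library, Nr3c1 stood at 21.3 ± 3.64 in CONT (SD, n = 3). Nr3c2 stood at 1.79 there, the lowest level of the set.

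Hsd11b1 (ENSMUSG00000016194), the gene of the hormone-regenerating enzyme, had 78.4, 182 and 140.3 CPM in CONT and 152, 206 and 299 in CAC. Its CAC mean was 1.64 times the CONT mean, but CONT replicate 2 lay above CAC replicate 1, so the groups overlapped. The log2 fold change was 0.71 ± 0.39 and was 0.43 without CAC replicate 3. Lamb3, on the opposite strand, overlaps Hsd11b1, and the table gave it 671 reads against 24884 for Hsd11b1. Whether the counting used strand was not stated.

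Of the 10 genes, 4 had CAC libraries that all lay above all CONT libraries, and none had the opposite. Among all 17296 genes tested, 11.8% were separated in the first direction and 10.7% in the other. Because the genes were picked for this difference, nothing is read from that count. Fkbp5, Zbtb16, Per1 and Errfi1 were the separated genes, and 8 of the 10 had a positive log2 fold change. The median of the 10 was 1.48, ranging from -0.22 to 3.28, beside a median of -0.06 over all genes tested.

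**Figure D1:**
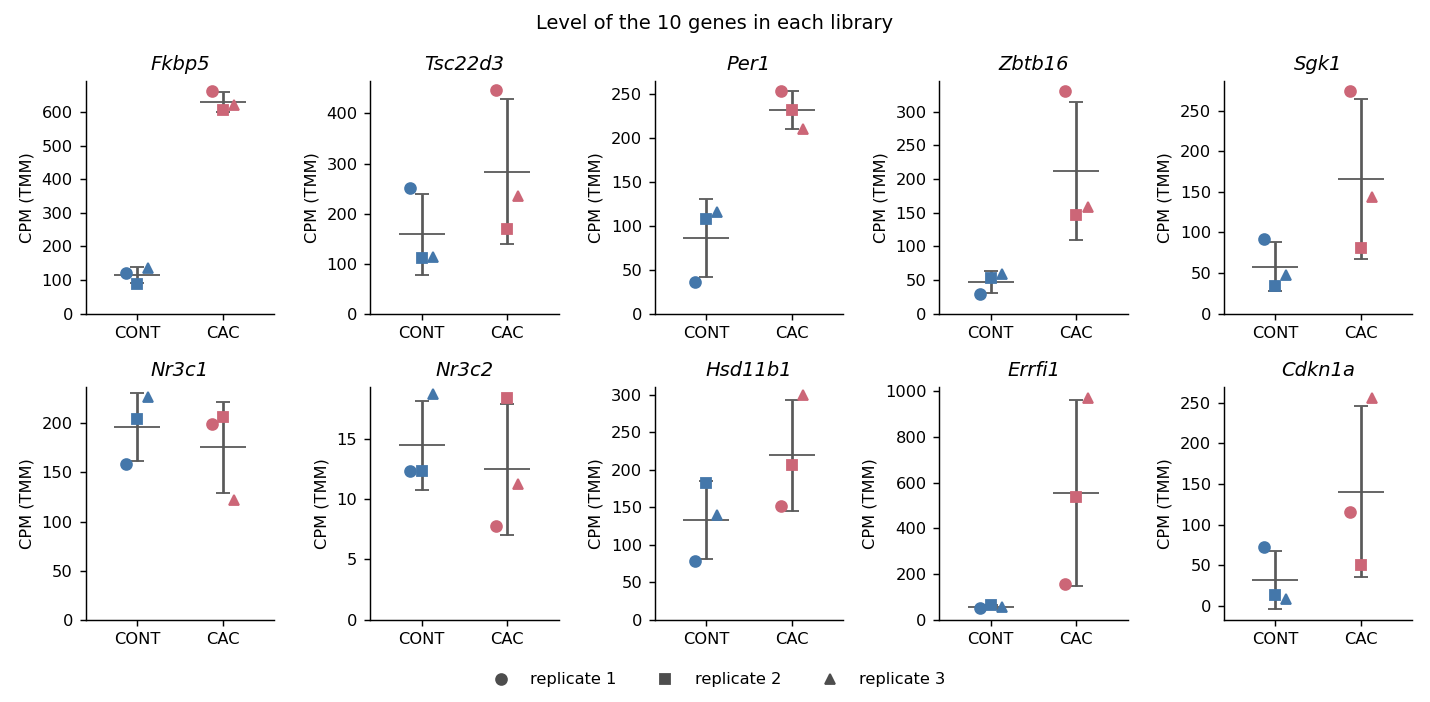
Level of each gene (TMM-scaled CPM, linear axis) in the 3 CONT and 3 CAC libraries. Points are single libraries, with a symbol per replicate number, long bars are group means and error bars are ± 1 SD. No pairing of mice by replicate number was stated. Fkbp5, Per1, Zbtb16 and Errfi1 had no overlap between groups, and Errfi1 ranged from 158 to 973 CPM within CAC.

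Fkbp5 (ENSMUSG00000024222, GRCm38 chr17:28399094-28517527, minus strand), the co-chaperone that restrains the receptor, had the most even difference. CONT libraries had 120.2, 88.9 and 136 CPM, and CAC libraries had 663, 606 and 622. The means were 115 ± 24.1 in CONT and 630.4 ± 29.6 in CAC (SD, n = 3 each), a 5.48-fold difference. Within CAC the highest library was only 1.09 times the lowest, the smallest spread of the 10 genes. The log2 fold change was 2.45 ± 0.25 and stayed between 2.30 and 2.61 when any library was left out. In FPKM, Fkbp5 was the sixth level of the set in CONT (9.78) and the second in CAC (54.4 ± 2.99).

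Zbtb16, a zinc finger repressor (PLZF) long used as a hormone-response gene, had 29.4, 52.6 and 59.3 CPM in CONT and 331, 146 and 159 in CAC. Every CAC library was well above every CONT library, and CAC replicate 1 stood above the rest. The log2 fold change was 2.17 ± 0.43, and 1.75 without CAC replicate 1. Per1, a repressor of the circadian clock with receptor-driven transcription, had 35.6, 107 and 115 CPM in CONT and 254, 231 and 209.8 in CAC. CAC libraries lay close together, whereas CONT replicate 1 was the low value, with the highest CONT library at 3.24 times its level. The log2 fold change of Per1 was 1.43 ± 0.44, and 1.07 without CONT replicate 1.

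Errfi1, which encodes an inhibitor of the epidermal growth factor (EGF) receptor, showed the highest fold and a wide range. Its CONT libraries had 50.5, 66.6 and 54.2 CPM and its CAC libraries 158, 537 and 973. The CAC mean was 9.74 times the CONT mean, and the highest CAC library was 6.17 times the lowest. The log2 fold change was 3.28 ± 0.65, and 2.62 without CAC replicate 3. Errfi1 had 12.8 FPKM in CONT and 126 ± 92.6 in CAC, the highest level of the set there.

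The other targets overlapped between groups. Tsc22d3 had 251, 110.5 and 113 CPM in CONT and 446, 169 and 236 in CAC. CONT replicate 1 was above CAC replicates 2 and 3, and the log2 fold change of 0.84 ± 0.49 was 0.38 when CAC replicate 1 was left out and 1.36 when CONT replicate 1 was. Sgk1, a kinase that increases sodium and glucose uptake, had 91.8, 33.9 and 47.3 CPM in CONT and 274, 80.4 and 144 in CAC. Here CONT replicate 1 was above CAC replicate 2 only, and the log2 fold change was 1.53 ± 0.55, or 0.99 without CAC replicate 1 and 2.05 without CONT replicate 1. Cdkn1a, the cell cycle inhibitor p21, had 72.7, 12.8 and 9.04 CPM in CONT and 115, 50.7 and 256 in CAC. Its log2 fold change of 2.17 ± 0.95 had the largest SE of the 10, with 1.42 without CAC replicate 3 and 3.70 without CONT replicate 1.

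**Figure D2:**
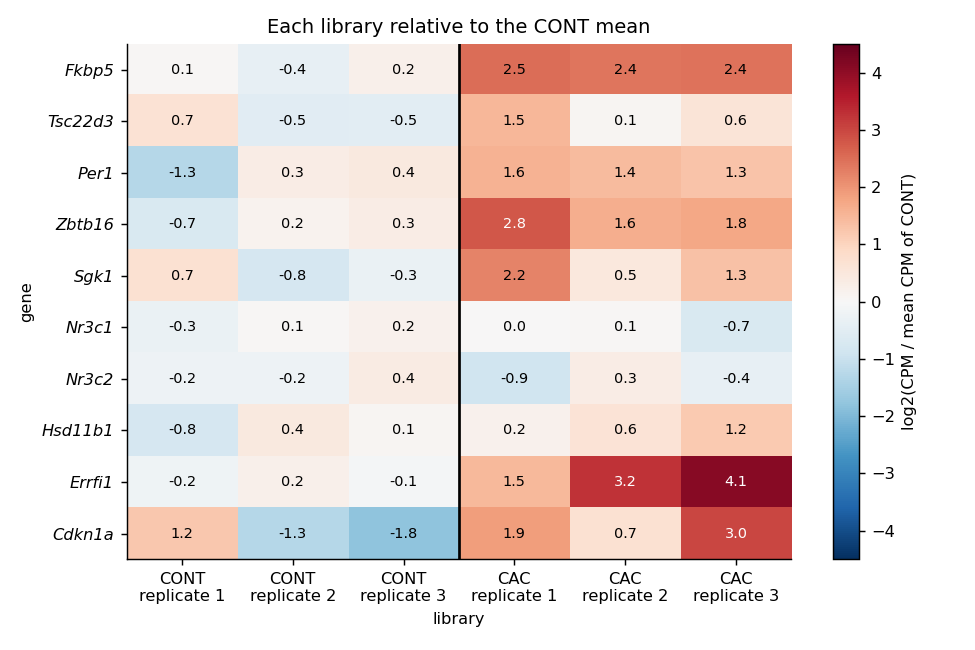
Each cell gives log2 of a library's CPM over the mean CPM of the 3 CONT libraries for that gene, with genes in rows, libraries in columns and the colour scale on the same log2 units. Fkbp5 had 2.53, 2.40 and 2.43 in the 3 CAC libraries, while Errfi1 ran from 1.5 to 4.1 and CONT replicate 1 had 0.67 for Tsc22d3, 0.67 for Sgk1 and 1.21 for Cdkn1a.

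The 10 genes did not share a single order among CAC mice. Fkbp5, Tsc22d3, Zbtb16 and Sgk1 were highest in CAC replicate 1 and lowest in CAC replicate 2, an order that 18.1% of 5779 well-expressed genes had. Hsd11b1 and Errfi1 were highest in CAC replicate 3 and lowest in CAC replicate 1, as were 21.6% of those genes. Per1 followed replicates 1, 2 and 3 from high to low (23.8%), and Cdkn1a was highest in replicate 3 and lowest in replicate 2 (15.1%). Nr3c1 was highest in replicate 2 and lowest in replicate 3 (9.4%), and Nr3c2 highest in replicate 2 and lowest in replicate 1 (12%). In CONT, replicate 1 was the highest library for Tsc22d3, Sgk1 and Cdkn1a, and the lowest for Per1, Zbtb16, Nr3c1, Nr3c2, Hsd11b1 and Errfi1. This was common among the 5779 genes. The orders with CONT replicate 1 highest held 17% and 28.4% of them, and those with it lowest 12.2% and 32.2%. CONT replicate 1 was also the library with the high mitochondrial share, and whether this has a part in these values was not tested.

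Ordered by FPKM in CONT, Tsc22d3 (29.4), Hsd11b1 (25.2) and Nr3c1 (21.3) came first, followed by Errfi1 (12.8), Per1 (12.3), Fkbp5 (9.78), Sgk1 (9.49), Cdkn1a (7.18), Zbtb16 (7.16) and Nr3c2 (1.79). Neighbours in that order were separated in all libraries only between Nr3c1 and Errfi1 and between Zbtb16 and Nr3c2. In CAC the order was Errfi1, Fkbp5 (54.4), Tsc22d3 (53.5), Hsd11b1 (42.1), Per1 (33.6), Zbtb16 (32.9), Cdkn1a (32.4), Sgk1 (27.8), Nr3c1 (19.3) and Nr3c2 (1.57). There the only neighbours without overlap were Nr3c1 and Nr3c2. Nr3c1 was the third of the 10 in CONT and the ninth in CAC, at 21.3 and 19.3 FPKM.

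**Figure D3:**
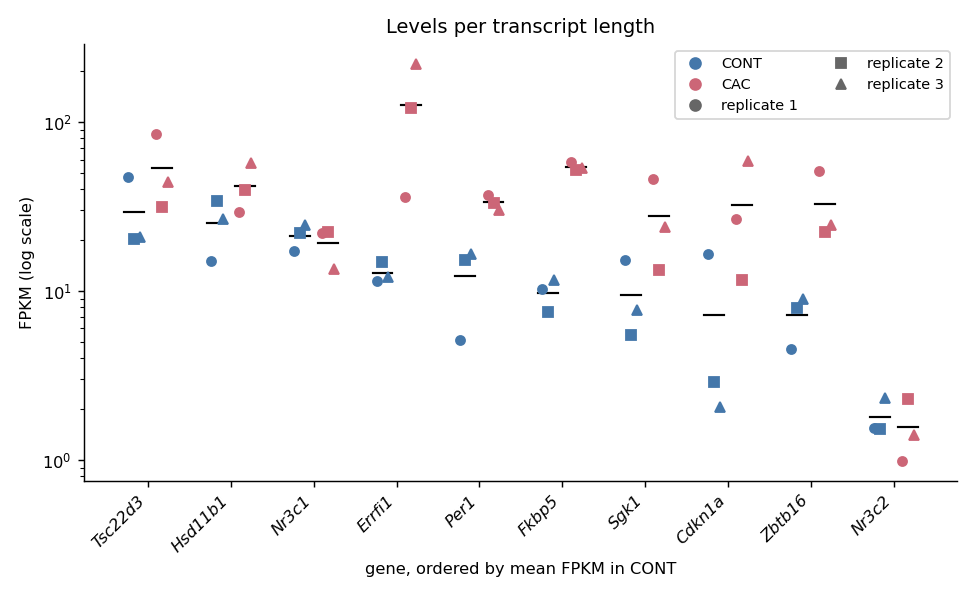
Level per transcript length (FPKM, log axis) of the 10 genes in the 3 CONT (blue) and 3 CAC (red) libraries, ordered by mean FPKM in CONT, with short lines at the group means and a symbol per replicate number. Nr3c1 had 21.3 FPKM in CONT and 19.3 in CAC, while Fkbp5 had 9.78 and 54.4.

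Fkbp5 and Cdkn1a lie on the same chromosome, 573448 bases apart. Between them the table lists 35 genes, of which 11 were tested. Their log2 fold changes ran from -0.69 to 1.63 (median 0.14). Groups were separated for 3 of the 11, all higher in CAC, a direction in which 11.8% of all genes were separated.

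The genes whose profile over the 6 libraries was most like that of Fkbp5 (Pearson r of log2 CPM among 5770 well-expressed genes, as a description of 6 points in 2 groups) were Psmd7 (0.996), Rad21 (0.996) and Hibch (0.994). For Nr3c1 they were Timp2 (0.993), Lrrk1 (0.987) and Adgrd1 (0.976). An r above 0.95 was found for 88 genes with Fkbp5 and for 12 with Nr3c1.

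The machinery around the receptor was read from lists of genes outside the set. None of the 17296 genes passed edgeR's quasi-likelihood test after Benjamini-Hochberg adjustment (0% called), and the lowest adjusted p was 0.127. At an unadjusted p under 0.05 the same test gave 6.31% of genes higher and 6.95% lower in CAC. DESeq2, run as an alternative on the same counts, called 550 of 17292 genes higher (3.18%) and 409 lower (2.37%).

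Of 7 chaperones of the receptor, none was separated between groups or had an unadjusted p under 0.05, and their median log2 fold change was 0.05. Hsp90ab1 (0.21 ± 0.29, SE), Hsp90aa1 (-0.20 ± 0.32) and Hspa8 (0.58 ± 0.37), the heat shock proteins that hold the receptor ready, all overlapped. So did the co-chaperones Stip1 (0.06), Ptges3 (0.04), Ppid (0.05) and Fkbp4 (-0.35 ± 0.22). Fkbp4 competes with Fkbp5 for the receptor complex, and its levels were 151, 120.4 and 132 CPM in CONT and 90.8, 92.3 and 133 in CAC.

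Among 10 coregulators, 4 were separated with higher values in CAC, as were 11.8% of all genes, and none with lower values. They were the coactivators Ncoa1 (0.84 ± 0.24, edgeR adjusted p = 0.275), Ep300 (0.62 ± 0.30) and Crebbp (0.27 ± 0.16), and the corepressor Ncor1 (0.62 ± 0.24). Ncoa1 had 45, 55.7 and 65.3 CPM in CONT and 126, 83.1 and 88.6 in CAC, and was the only gene of the list that DESeq2 called. The list's median was 0.23, and 0.12 without CONT replicate 1.

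Of 9 genes for supply and removal of the hormone, 6 were tested and all 6 overlapped between groups. H6pd, which makes the cofactor for the Hsd11b1 enzyme, had 206, 393 and 502 CPM in CONT and 736, 390.0 and 365 in CAC (log2 fold change 0.44 ± 0.44). The drug and steroid exporters Abcb1a (0.39 ± 0.19) and Abcb1b (0.45 ± 0.29), the steroid reductase Srd5a1 (-0.96 ± 0.85) and the cholesterol carrier Star (-0.19 ± 0.35) followed. Hsd11b2, the enzyme that inactivates the hormone, had 93 reads in all 6 libraries (0.41 ± 0.74). The genes left out by the filter were Serpina6 (15 reads), the plasma carrier of the hormone, and the steroid synthesis genes Cyp11a1 (112 reads) and Cyp11b1 (10 reads).

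A further 35 genes known to be induced by glucocorticoids were examined, 33 of which were tested. This list too was chosen with earlier results of these data known, so its counts are described and nothing is read from them. In that list 17 genes were separated with higher values in CAC (11.8% of all genes were) and 2 with lower values (10.7% of all), and 29 of 33 had a positive log2 fold change. The median was 0.97 and the range -2.53 to 5.51. At an unadjusted p under 0.05, 16 were higher and 2 lower, none passed the adjustment, and DESeq2 called 14 higher and 1 lower. Without CONT replicate 1, 23 of 34 were separated with higher values, when 18.1% of all genes were.

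Ddit4, Pdk4 and Klf15 had the smallest p of the list. Ddit4, an inhibitor of the growth kinase mTORC1, had 57.4, 49.2 and 64.7 CPM in CONT and 344, 507 and 418 in CAC, a log2 fold change of 2.89 ± 0.25 (edgeR adjusted p = 0.127). Pdk4, which slows glucose oxidation in mitochondria, had 24.4, 18.7 and 21.2 CPM in CONT and 144, 198 and 99.3 in CAC, a log2 fold change of 2.78 ± 0.30 (edgeR adjusted p = 0.127). Klf15, a transcription factor of amino acid and lipid catabolism, had 71.1, 68.5 and 77.6 CPM in CONT and 152, 187 and 163 in CAC, a log2 fold change of 1.21 ± 0.18 (edgeR adjusted p = 0.177). No CAC library of these 3 genes was as low as any CONT library, though Pdk4 varied within CAC (147 ± 49.4 CPM, SD).

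The other separated genes with higher values covered several roles. Among regulators of transcription were Cebpd (log2 fold change 1.66), Klf9 (1.63), Foxo3 (0.97) and Foxo1 (0.90), and the clock repressor Per2 (1.27). Metabolic genes were Lpin1 (2.03), a phosphatidate phosphatase, Irs2 (1.91), an adaptor of the insulin receptor, and Glul (1.26), glutamine synthetase. Genes that damp inflammation or clear dead cells were Nfkbia (1.10), the inhibitor of NF-kB, Mertk (1.37) and the decoy receptor Il1r2 (5.51). Sesn1 (0.63), Edn1 (0.98) and Ndrg2 (0.58) completed the list. Bcl6 (-1.51) and Rasd1 (-1.27) were separated in the opposite direction.

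Il1r2 had 0, 0.35 and 0.362 CPM in CONT and 6.16, 5.21 and 24.5 in CAC. It passed the filter on low counts only through its CAC libraries, so nothing is read from its separation or its place in the range. This gene is also expressed by neutrophils, and 4 of 5 neutrophil markers were separated with higher values in CAC, among them S100a8, Ly6g and Retnlg. The part of neutrophils in the Il1r2 difference was not tested. No single marker of mature adipocytes was separated between the groups.

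**Figure D4:**
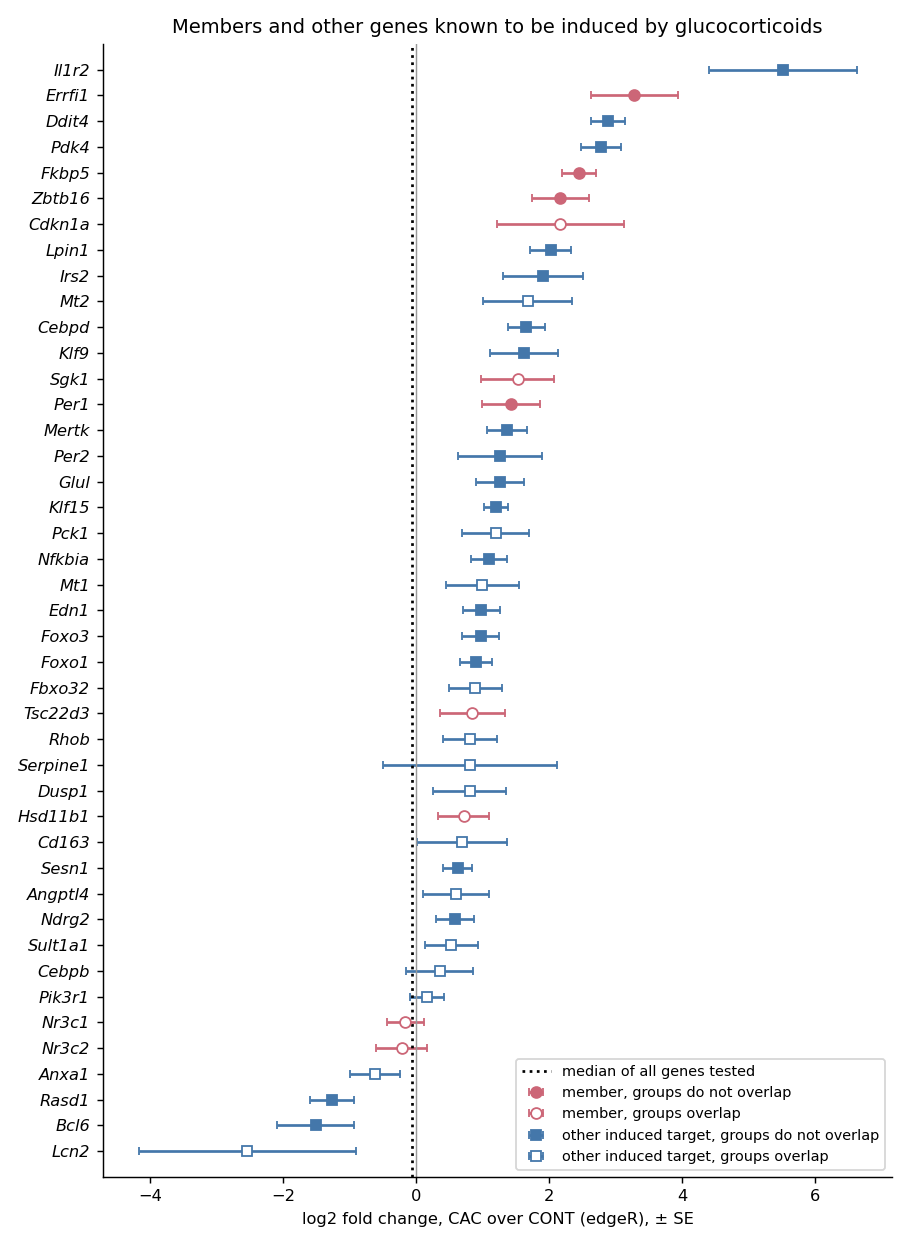
Fitted log2 fold change of CAC over CONT (edgeR, ± SE, n = 3 per group) for the 10 genes of the set (red circles) and 33 other genes known to be induced by glucocorticoids (blue squares). Filled symbols mark genes whose groups did not overlap, and the dotted line is the median of all genes tested (-0.06). Of the 33 others, 29 lay above 0, with Lcn2 and Il1r2 at the ends of the range (-2.53 and 5.51).

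Inflammatory genes that glucocorticoids are known to repress were mostly near the limit of detection. Of 12, 9 were tested, and the 2 that were separated were both higher in CAC, a direction in which 11.8% of all genes were separated. Cxcl2, a neutrophil attractant, had 0.0892, 0.788 and 0.316 CPM in CONT and 1.15, 1.90 and 4.46 in CAC. It needed its CAC libraries to pass the filter on low counts, so nothing is read from its separation. Il1b had 0.446, 3.46 and 2.03 CPM in CONT and 5.63, 7.10 and 5.06 in CAC. Nos2 followed by size of p, with a log2 fold change of -0.64 ± 0.38. The list's median of 0.42 turned to -0.59 without CAC replicate 3 and to -0.002 without CONT replicate 1, so its sign depended on the libraries used.

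Close relatives of the 10 genes were listed as well. Of 13 paralogs, 11 were tested and 2 were separated with higher values (Per2 and Cdkn1b), as were 11.8% of all genes. None was separated with lower values (10.7% of all genes were), and the median log2 fold change was -0.08. Tsc22d1 (-0.08), Tsc22d2 (0.30) and Tsc22d4 (-0.24) overlapped between groups, beside 0.84 for Tsc22d3. Sgk3 had -0.02 ± 0.41, Per3 -0.24 ± 0.80, Cdkn1b 0.26 ± 0.15 and Cdkn1c -0.86 ± 0.48. Sgk2 and the progesterone receptor gene Pgr, with 46 and 44 reads in all, were not tested. The difference between a gene of the set and its paralogs was not tested.

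Cdkn1a is also a target of p53, and Errfi1 acts on the EGF receptor, so genes of those pathways were set beside them. Of 11 p53 targets, 2 were separated with higher values (11.8% of all genes were), Trp53inp1 (3.05 ± 0.55) and Sesn2 (1.54 ± 0.35). Another 2 were separated with lower values (10.7% of all genes were), Bbc3 (-2.31 ± 0.45) and Phlda3 (-1.52 ± 0.40). Mdm2 (0.14) and Ccng1 (0.07), 2 other p53 targets, were named after their values were seen and overlapped between groups. Of 10 genes for EGF family receptors and ligands, 8 were tested and none was separated. Their median was -0.35, and between -0.66 without CAC replicate 2 and -0.02 without CONT replicate 2 or CAC replicate 3 (-0.05 without CONT replicate 3). The smallest p were those of Erbb2 at -0.64 ± 0.33, Erbb3 at -1.76 ± 0.95 and Hbegf at -0.59 ± 0.42, while Egfr, also named after its values were seen, had -0.03 ± 0.37.

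Sgk1 acts on the epithelial sodium channel, whose genes were low in this tissue. Scnn1a had 2.41, 22.0 and 25.8 CPM in CONT and 3.82, 5.09 and 2.49 in CAC, a log2 fold change of -2.14 ± 0.82, with CONT replicate 1 below all 3 CAC libraries. Nedd4l, the ubiquitin ligase that removes the channel and that the Sgk1 kinase inhibits, had a log2 fold change of -0.65 ± 0.30, and Scnn1b 0.32 ± 0.95. None of the 3 genes tested was separated between groups.

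Per1 belongs to the circadian clock, and clock genes differed between mice of the same group. Of 17 clock genes, 4 were separated with higher values in CAC (11.8% of all genes were) and 1 with lower values (10.7% of all). Their median was 0.10, and -0.22 without CONT replicate 1. Cry1 (1.18 ± 0.28) and Bhlhe41 (-1.78 ± 0.46) had the smallest p. Dbp and Arntl, genes of opposite daily phase named after their values were seen, divided the libraries in another way. Dbp had 6.33, 132 and 175 CPM in CONT and 52.4, 39.2 and 6.53 in CAC, and Arntl had 25.7, 4.20 and 4.48 CPM in CONT and 2.18, 8.23 and 31.8 in CAC. CONT replicate 1 and CAC replicate 3, low in Dbp and high in Arntl, were also the lowest libraries of their groups for Per1. Per1 had 209.8 CPM in CAC replicate 3 and 35.6 in CONT replicate 1. The part of the clock in the Per1 difference was not tested.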

How the data were processed

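Epididymal fat of 3 CONT and 3 CAC mice was sequenced as poly(A) RNA, 1 library per mouse, and samples were grouped by their labels. The authors cleaned the reads, used HISAT2 2.0.5 with the Ensembl release 94 mouse genome for alignment and, per the labels' processing notes, counted them with featureCounts 1.5.0-p3. The deposited count of a gene is its raw number of reads. The deposited FPKM values divide those counts by gene length and a constant per library, which was not the sum of the deposited counts. It was 13817709 for 15713794 counts in CONT replicate 1 and 28608282 for 19819755 counts in CONT replicate 2.

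Counts were tested in R 4.3.3 with edgeR 4.0.16 (quasi-likelihood with robust estimation, TMM, edgeR's filter on low counts, two-sided, adjusted p under 0.05 over 17296 genes), with group as the only term. The SE of a fold change was derived from its F statistic. DESeq2 1.42.0 and limma 3.58.1 on log2(FPKM + 1) and log2(FPKM + 0.1) were alternatives. A pseudocount draws the fold change of a low gene toward 0. Scripts were tested on simulated data. Groups do not overlap where every library of one lies above every library of the other.

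The 10 genes and the lists were chosen with earlier results of these data known. Named from each list were the 3 genes with the smallest p, all chaperones, supply genes and paralogs with at least 10 reads in all, and all separated induced targets. Values of 2 genes that this rule names are not reported here. One CPM stood for 11.2 to 26.5 reads. Replicates of a group differed beyond sampling noise (chi-square per degree of freedom 66.7 to 398), so each counted as 1 sample. Promoters came from RefSeq windows, and annotation from GENCODE M21, both on GRCm38. No columns of the authors' own comparisons were used.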

Additional observations from a re-analysis of the deposited data

How the results depend on the processing

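No gene passed edgeR's test under any edgeR setting tried, except 1 with the replicate number as a block. The labels and methods state no pairing of mice by that number. Same-numbered libraries had r from -0.15 to 0.06, which with 3 libraries per group cannot exclude a pairing. DESeq2 called 959 genes, and limma called 5 on log2(FPKM + 1) and 6 on log2(FPKM + 0.1). The causes of these differences were not tested. With library totals alone, 7 of the 10 genes were separated in place of 4, while the share of all genes separated in either direction went from 22.5% to 17.9%. When a library was left out, 4 to 7 were separated (7 without CONT replicate 1, when 37.7% of all genes were, and 7 without CAC replicate 2, when 26.6% were), with fewer libraries to overlap, and the median of the 10 ran from 1.2 (without CAC replicate 1) to 1.66. The 7 targets and Hsd11b1 kept their direction in all settings. Nr3c1 ran from -0.28 to 0.051 when a library was left out, turning without CAC replicate 3 (0.077 in DESeq2, whose fits without a library were added after seeing the data). Nr3c2 ran from -0.60 to 0.083, turning without CONT replicate 3 (0.028, and 0.050 in DESeq2) and without CAC replicate 1 (0.065 in DESeq2). Medians of 5 lists also turned. The repressed inflammatory genes had -0.11 with at least 10 counts in every library, -0.16 with the replicate block, -0.15 on log2(FPKM + 0.1) and -0.59 to 0.74 when a library was left out. The corresponding ranges when a library was left out were -0.13 to 0.21 for chaperones, -0.24 to 0.081 for paralogs, -1.24 to 0.082 for the sodium channel genes and -0.22 (without CONT replicate 1) to 0.15 for clock genes. The sodium channel median of -0.65 was -1.41 with at least 10 counts in every library and -0.08 with no filter on low counts. Medians of the coregulators (0.12 to 0.29), the EGF family genes (-0.66 to -0.02), the supply genes (0.01 to 0.50) and the p53 targets (0.11 to 0.26) kept their sign. The other induced targets had a positive median in every setting, from 0.85 to 1.15. CONT replicate 1, with the lowest depth, limits how precisely low genes were measured.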
